A study of Mus musculus with 8 samples.

Results

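The comparison described here is the step from day 2 to day 4 of induced reprogramming in mouse embryonic fibroblasts, read from 4 RNA-seq libraries of 8 in the series: 2 libraries of D2 and 2 of D4. All 8 libraries, those of D6 and D8 included, come from fibroblasts of 13.5-dpc homozygous 4F2A embryos labelled male, grown in KnockOut DMEM that held KnockOut Serum Replacement at 15%, LIF at 1000 U/mL and doxycycline at 2 µg/mL, with doxycycline present from D0. By the labels every group therefore carries the same alleles and receives the same drug, and only the time in doxycycline differs. All 8 titles hold the word Ctr, and the labels do not say what the libraries were controls for. No library from before doxycycline or from cells without it was analysed here, so each change is a change between 2 time points of induction and not a change from the starting fibroblast. The labels speak of parallel replicates and do not say that they were separate cultures, so p-values measure the spread between these libraries, which may be technical.

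The 4F2A strain carries Pou5f1, Sox2, Klf4 and Myc as 1 doxycycline-inducible polycistronic cassette at the Col1a1 locus, so that a single drug switches on all 4 factors together. Fibroblasts that receive these factors are known to lose fibroblast and contractile genes, to change their growth signalling and metabolism and to gain epithelial genes, and only a minority of cells later establish the endogenous pluripotency network. Fibroblasts also signal to themselves and their neighbours through growth factors, the matrix and innate immune sensors.

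Values are CPM, the reads of a gene per 1000000 reads of its library, and the libraries held 19409938 to 20161022 reads. Of 32108 genes, 15358 had at least 1 CPM in at least 2 of the 8 libraries and were tested, with limma on log2(CPM + 1) over all 8 libraries and an adjusted p under 0.05 as the call. Changes are D4 minus D2 on the log2(CPM + 1) scale, which understates the change of low genes. Of the 12 fibroblast markers all 12 passed the filter on low values, with 9 higher and 3 lower on D4. The 12 summed to 26229 and 26239 CPM on D2 and to 41454 and 44813 CPM on D4. The collagen genes Col3a1, Col1a1 and Col1a2 among them gained a mean of 8486, 5505 and 2976 CPM, which makes up nearly all of that rise. All 9 smooth muscle and pericyte markers that passed the filter fell, from summed levels of 3307 and 3198 to 749 and 737 CPM. Xist, the RNA of the inactive X chromosome, stood between 702 and 1238 CPM over the 8 libraries, which goes against a label of male embryos alone. In bulk RNA, fewer cells of a type and less RNA per cell cannot be told apart, and this holds for every gene group below.

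The step moved a majority of the transcriptome, mostly by small amounts. Of the genes tested, 62.5% were called, 40.9% higher and 21.7% lower on D4. Changes of at least 2-fold were far fewer, 6.39% higher and 3.44% lower, and 58.5% of the genes called higher changed by less than 1.5-fold. The median change of all tested genes was 0.11, with quartiles of -0.15 and 0.43, and every list median below is to be read against it. This balance depends on the scaling: 65.3% of the calls were higher as deposited, 52.0% with median-of-ratios factors and 47.1% after quantile normalization, which moved the median of all genes by -0.10 and -0.14. Summed over genes, 15.2% of the reads changed hands between D2 and D4.

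The 10 genes with the largest gain in CPM took 22.4% of all gained CPM and the 10 with the largest loss gave 17.6% of all lost CPM. Col1a1 and Col3a1, the chains of the main fibrillar collagens, Col1a2 and H19 stood among the gains beside the mitochondrially encoded mt-Co1, mt-Nd2, mt-Nd4, mt-Nd5 and mt-Atp6, the last of which was not called after quantile normalization. Losses were led by adhesive matrix and cytoskeletal transcripts, among them Thbs1, Fn1, Acta2, Timp3, Itgb1, Fbln2, Flna, Tpm1 and Vim. Highly expressed genes were called more often, 72.2% of those with a mean over 300 CPM against 45.0% of those under 3 CPM, and their median change was -0.13. Protein-coding genes gave 6037 higher and 2874 lower calls of 13530 tested. Processed pseudogenes, intronless copies of spliced transcripts whose reads can come from the parent gene, gave 38 higher and 326 lower calls of 1138.

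**Figure D1:**
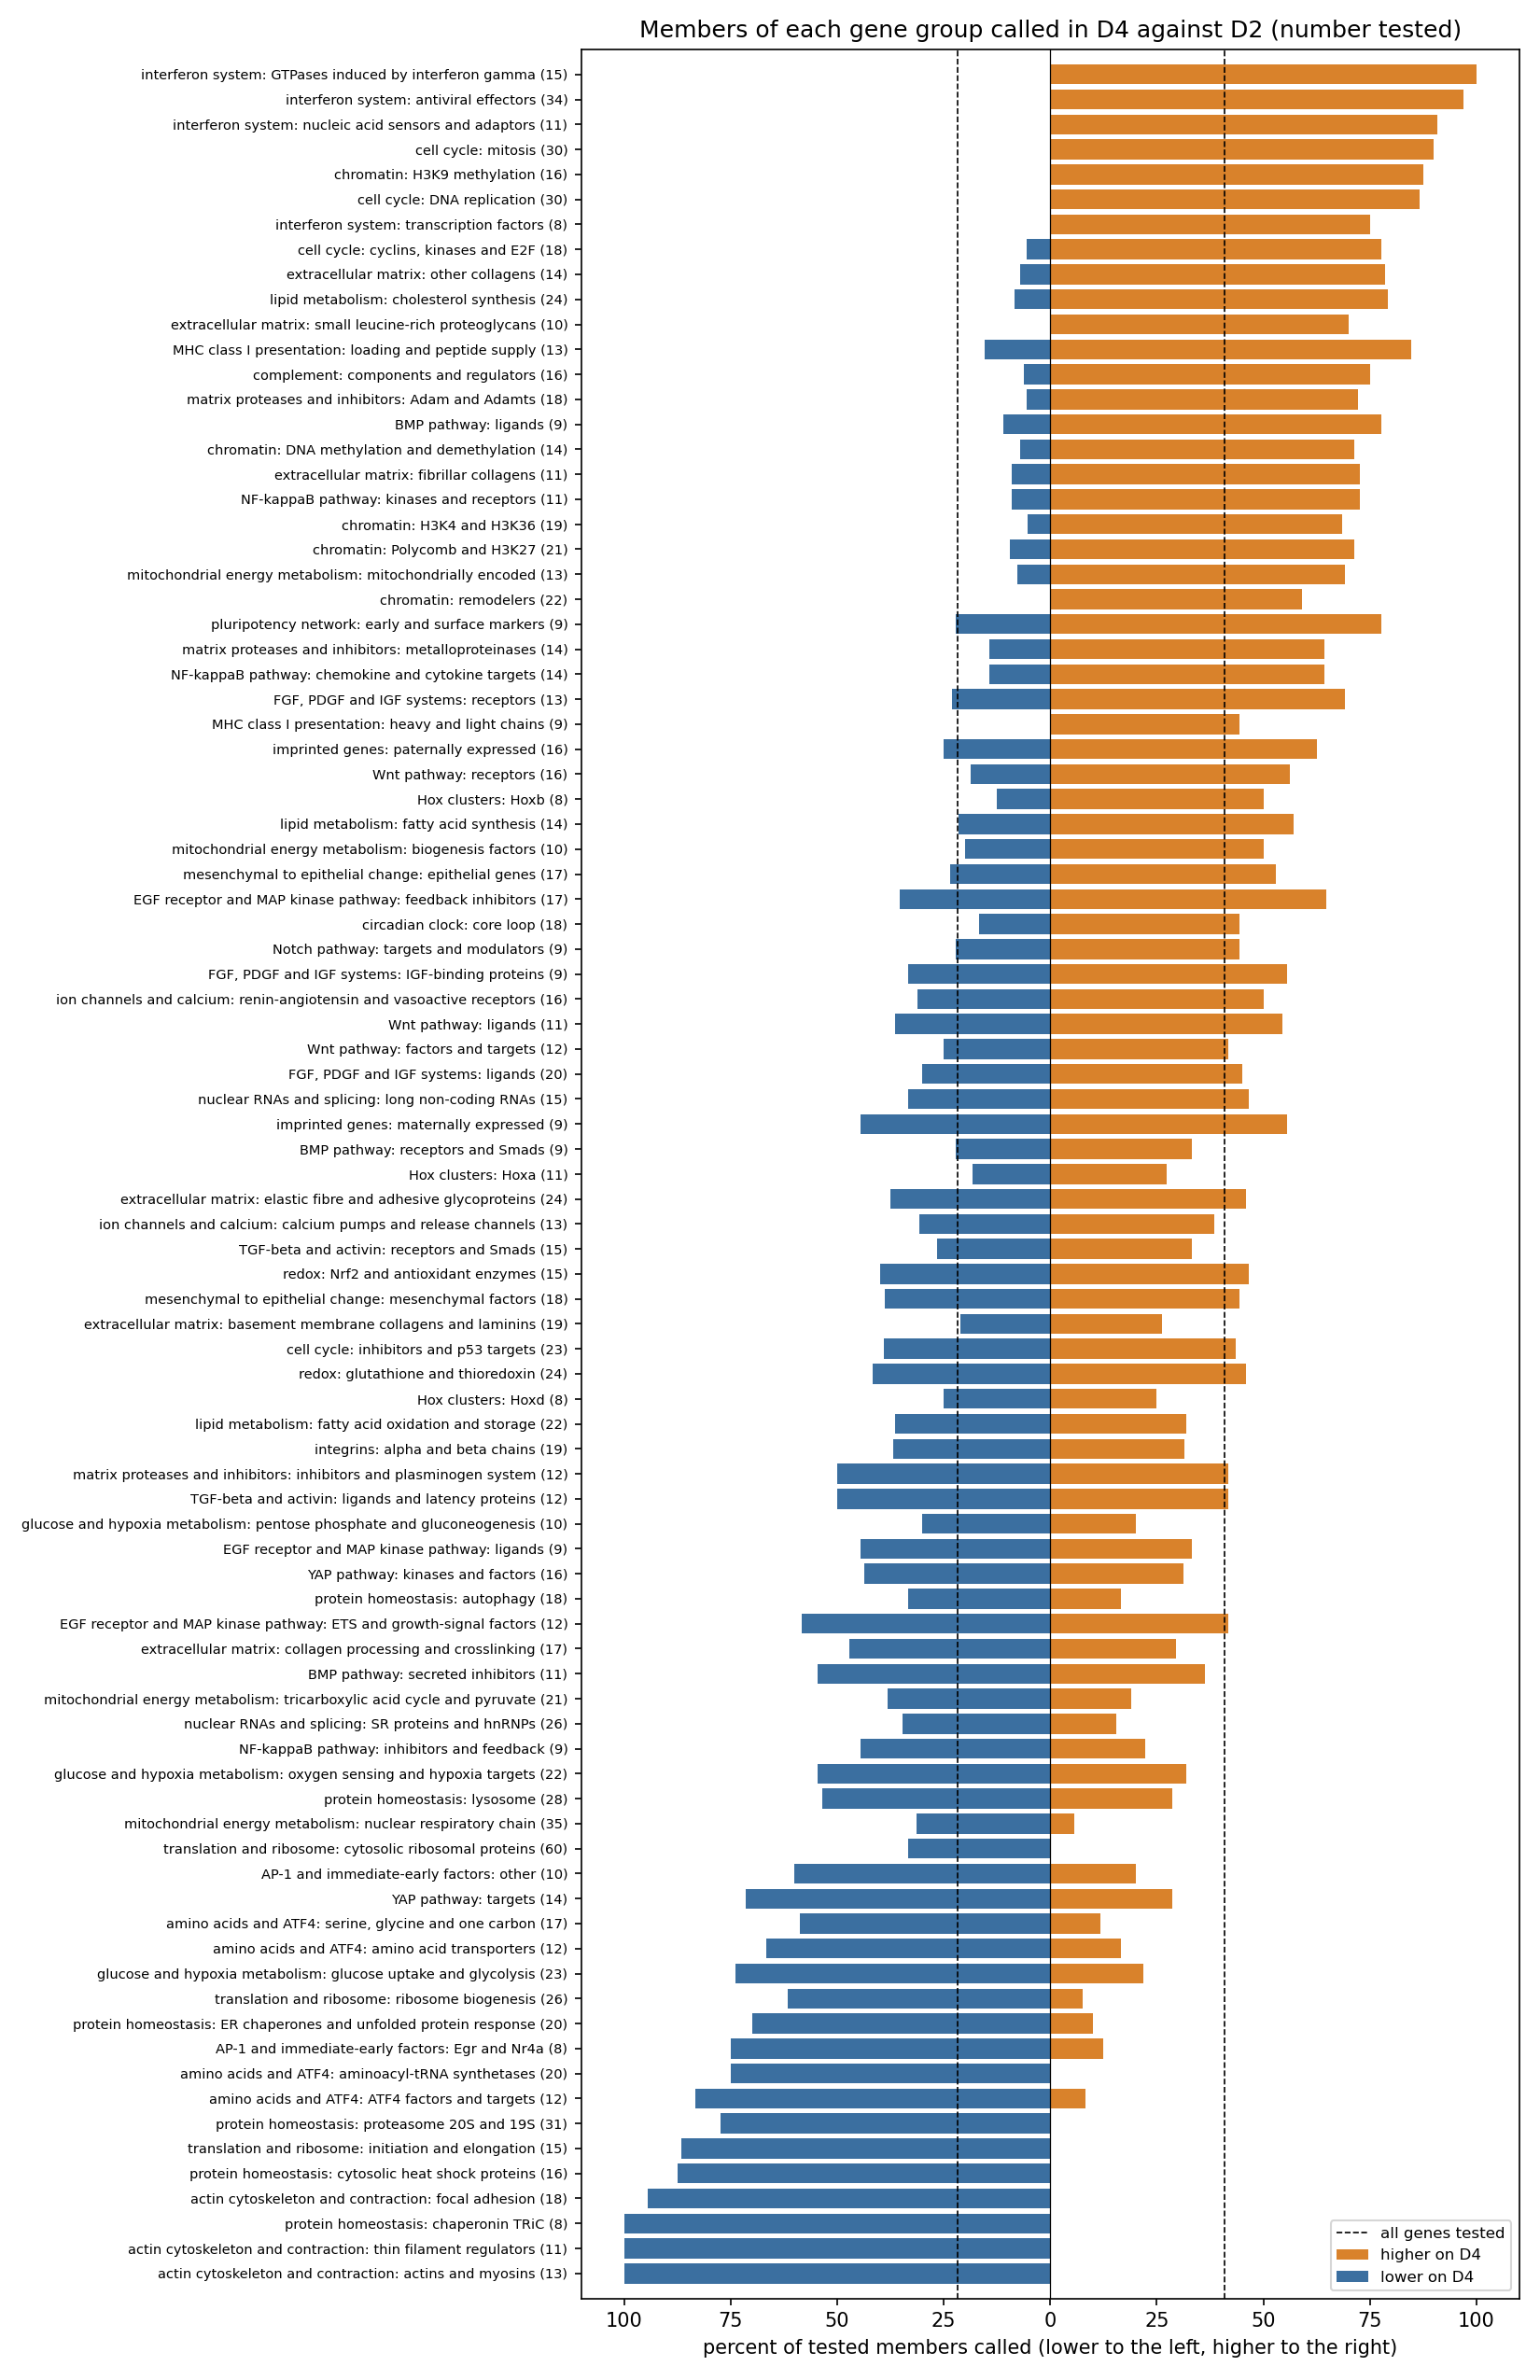
Percent of the tested members of each gene group with at least 8, cell type markers left out, called higher (right, orange) or lower (left, blue) on D4 against D2, with the number tested beside the name. Dashed lines mark the share of all 15358 tested genes, 40.9% higher and 21.7% lower; interferon-induced GTPases, mitosis and replication genes lie far to the right, and actins, thin filament regulators and the chaperonin far to the left.

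The factors themselves changed little over the step. Pou5f1, the POU-domain factor of the cassette, was at 115 and 112 CPM in the D2 libraries and 156 and 170.0 CPM in the D4 libraries, a change of 0.52 ± 0.05 (SE) with a limma adjusted p of 1.4e-06. Sox2 went from 107 and 111 to 141 and 148 CPM, Klf4 from 334 and 326 to 406 and 435 CPM and Myc from 404 and 383 to 478 and 500.2 CPM, and the D2 and D4 libraries did not overlap for any of the 4. All 4 were called higher by 0.31 to 0.52. Reads of the cassette and of the endogenous genes cannot be told apart in these values.

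Endogenous pluripotency genes were mostly still near 0. Of 15 late factors 9 did not pass the filter, and of the 6 that passed 1 was higher, a call lost without D2 replicate 2 or D4 replicate 2, and 2 were lower. Nanog, a homeobox factor of the established network, was at 0.521 and 0.252 CPM in the D2 libraries and 0.302 and 0.317 CPM in the D4 libraries, where 1 read is worth about 0.05 CPM. Tbx3, a T-box factor that embryonic stem cells share with mesenchyme, fell from 22 and 19.7 to 13.2 and 14.9 CPM (-0.54). The early and surface genes moved more often, 7 higher and 2 lower of 9 tested and 18 listed. Icam1, an adhesion molecule used to sort reprogramming intermediates, rose from 5.06 and 5.98 to 21.7 and 21 CPM, while Cd24a fell from 238 and 237 to 144 and 132 CPM. Epithelial genes gave 9 higher and 4 lower calls of 17 tested, with the other 10 of 27 below the filter. Krt8, a simple epithelial keratin, was at 2.64 and 2.17 CPM on D2 and 30.2 and 21.4 CPM on D4, while Krt19, another simple keratin, moved the other way from 31.3 and 30.8 to 6.34 and 4.71 CPM. Mesenchymal factors divided evenly, 8 higher and 7 lower of 18, a balance that turned to 6 and 8 with median-of-ratios factors and 7 and 8 after quantile normalization. Snai2, a repressor of E-cadherin, rose from 21 and 21.7 to 29.3 and 30.3 CPM, and Twist1 rose from 81.6 and 83.8 to 109.7 and 111 CPM. Vim, the mesenchymal intermediate filament, fell from 4832 and 4664 to 3566 and 3314 CPM.

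Of the gene lists examined, the interferon system had the largest median rise. Type I interferons are secreted when cells sense viral or misplaced nucleic acid. They signal through a receptor and its kinases to transcription factors that bind a short element, the interferon-stimulated response element, before antiviral genes. The promoters of 4 such genes are shown because they carry it and their transcripts rose at least 2-fold, with the element, read on either strand, in capitals. Sequences are RefSeq's, build GRCm38.p6, and cover the 200 bases before the start of the gene, 5′ to 3′ on its own strand.
Ifit1, chr19:34640689-34640888, plus strand: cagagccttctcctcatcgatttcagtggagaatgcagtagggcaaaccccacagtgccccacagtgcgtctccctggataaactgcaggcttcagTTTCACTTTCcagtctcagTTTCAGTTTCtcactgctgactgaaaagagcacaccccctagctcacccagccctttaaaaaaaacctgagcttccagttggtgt
Ifit3, chr19:34583329-34583528, plus strand: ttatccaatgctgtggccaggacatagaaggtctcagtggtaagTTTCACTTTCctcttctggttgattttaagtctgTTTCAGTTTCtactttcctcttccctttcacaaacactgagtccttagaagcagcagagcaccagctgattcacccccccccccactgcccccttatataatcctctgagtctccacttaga
Isg15, chr4:156200819-156201018, minus strand: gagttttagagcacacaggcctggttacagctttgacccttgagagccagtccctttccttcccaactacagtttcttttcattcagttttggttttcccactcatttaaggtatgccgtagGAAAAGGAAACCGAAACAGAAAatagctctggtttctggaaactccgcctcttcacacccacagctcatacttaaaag
Rsad2, chr12:26456453-26456652, minus strand: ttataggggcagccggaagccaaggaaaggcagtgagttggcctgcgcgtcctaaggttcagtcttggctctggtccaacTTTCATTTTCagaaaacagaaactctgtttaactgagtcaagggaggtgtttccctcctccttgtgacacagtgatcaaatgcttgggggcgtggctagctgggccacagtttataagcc
The element begins 104 and 85 bases before the start of Ifit1, 156 and 122 before that of Ifit3 and 120 before that of Rsad2, and Isg15 has 3 overlapping copies from 78 bases before its start. Among the antiviral effectors with a promoter in the table, 14 of 27 held it in the window from 250 bases before to 50 after the start, 51.9%, against 3.99% of all 27025 promoters. A match is a description of the letters and not a measured binding site.

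None of the 6 interferon genes listed passed the filter: Ifnb1, Ifng and some of the alpha and lambda genes. Other interferon genes were not in the list. Of 79 tested members of the system 70 were higher and 3 lower on D4 (5 lower under both other scalings), and 58 rose at least 2-fold, with a median change of 2.07 that lay 1.97 above that of all genes. Receptors and kinases gave 4 higher and 3 lower of 7, with 2 higher under both other scalings. Ifnar1, a receptor chain, rose from 70 and 68.9 to 81.6 and 77.7 CPM, a call lost under both other scalings and without D2 replicate 2. Of the receptor's kinases, Jak1 fell from 302 and 301 to 241 and 246 CPM and Tyk2 rose from 26.6 and 25.8 to 45.2 and 44.1 CPM. Nucleic acid sensors and their adaptors rose in 10 of 11 cases. Ifih1, which binds long double-stranded RNA, rose from 4.27 and 4.13 to 37.4 and 34.8 CPM (2.83 ± 0.12 (SE), limma adjusted p 4.0e-10), and Dhx58 from 1.22 and 0.822 to 12.4 and 9.39 CPM. Both D4 libraries stood above both D2 libraries for each. Mavs, the mitochondrial adaptor of the RNA sensors, rose from 49.5 and 52.4 to 113 and 102 CPM.

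Downstream factors followed the same direction. Irf7, the factor that amplifies interferon production, was at 2.73 and 3.19 CPM in the D2 libraries and 47.9 and 38.7 CPM in the D4 libraries. Stat2 rose from 28.8 and 27 to 172 and 156 CPM, whereas Irf1 was not called at 24.2 and 24 CPM on D2 and 25.1 and 24.1 CPM on D4. Of 34 antiviral effectors 33 rose. Isg15, a ubiquitin-like modifier, went from 1.86 and 2.24 to 43.4 and 32 CPM, and Rsad2, an enzyme that makes a chain-terminating nucleotide, from 1.44 and 0.299 to 41.6 and 41.8 CPM. Ifitm3, a membrane protein that blocks viral fusion and the most abundant effector, stood at 222 and 231 CPM in the D2 libraries and 424 and 359 CPM in the D4 libraries. All 15 GTPases known for induction by interferon gamma rose. Iigp1, an immunity-related GTPase, was listed at 0.918 and 0.664 CPM on D2 and 50.6 and 42 CPM on D4 (4.72). Gbp3 rose from 1.14 and 1.29 to 45.8 and 35.3 CPM. In feedback, Usp18, the protease that removes Isg15 and blocks the receptor, rose from 1.81 and 1.29 to 29.4 and 23.7 CPM, but Socs1 and Socs3 were not called, with Socs3 at 89.7 and 84.3 CPM in the D2 libraries and 82.7 and 75.3 CPM in the D4 libraries, although Socs3 was called lower under both other scalings and without D4 replicate 1. Stat2 was then at 154 and 189.6 CPM on D6 and 139.5 and 139 CPM on D8. Iigp1 was at 44.7 and 58.1 CPM on D6 and 42.5 and 56.8 CPM on D8. For the system as a whole the median change from D2 was 2.57 by D6, against 2.07 by D4. For antiviral effectors the median change was 2.90 by D6, against 2.20 by D4. Macrophage and leukocyte markers, a cell type rich in these transcripts, gave 4 higher and 1 lower calls of 14 tested (2 higher without D2 replicate 1 or D4 replicate 1, 2 and 2 after quantile normalization), with Cd74 of the 15 below the filter. Of the 14 tested, 35.7% were called as deposited, against 62.5% of all genes. The summed level of these markers was 92.7 and 126 CPM on D2 and 127 and 131 CPM on D4. Ptprc was at 2.23 and 3.14 and 2.15 and 2.61 CPM, and the part of such cells in the result was not tested.

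**Figure D2:**
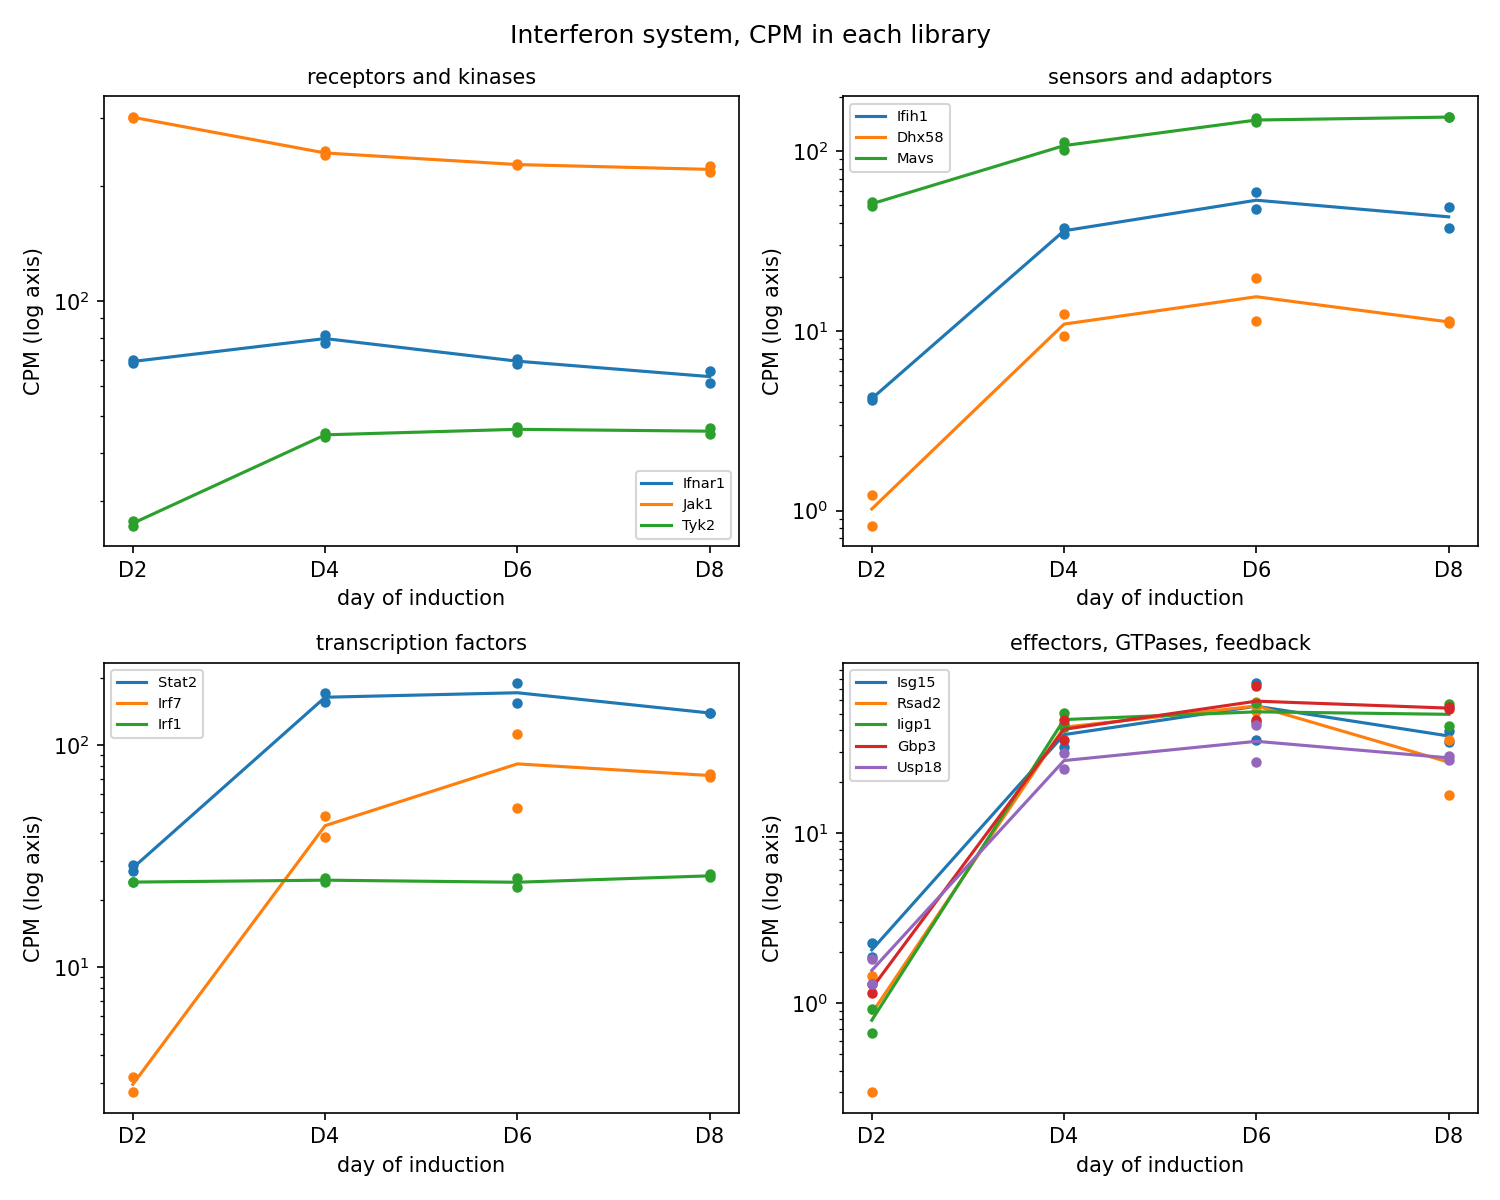
CPM on a log axis in each D2, D4, D6 and D8 library (points) for interferon-system genes of the 4 roles, with lines through the day means. Stat2 goes from 28.8 and 27 to 172 and 156 CPM and Iigp1 from 0.918 and 0.664 to 50.6 and 42 CPM by D4 and both stay near those levels, while the Irf1 points of D2 and D4 lie together.

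Antigen presentation on MHC class I rose through its supply chain. Of 13 loading and peptide supply genes 11 were higher and 2 lower. Psmb8, a catalytic subunit of the immunoproteasome, went from 0.422 and 0.398 to 5.77 and 4.41 CPM, and Tap1, which pumps peptides into the endoplasmic reticulum, from 17.8 and 20.3 to 63.8 and 60.2 CPM. Calr and Pdia3, general chaperones of that compartment, fell, Calr from 1497 and 1465 to 891 and 976 CPM, and the call of Pdia3 was lost with its sign after quantile normalization. Of the 9 heavy and light chain genes 4 rose, 1 of them 2-fold, so that 44.4% were called against 62.5% of all genes. B2m, the shared light chain, was not called at 454 and 476 CPM on D2 and 503 and 406 CPM on D4. Genes of this family share sequence, so reads may be split among them. Complement, a cascade of plasma proteins that fibroblasts also secrete, had 12 higher and 1 lower of 16 tested, with 2 of 20 listed below the filter and 2 symbols without a row of the table. C3, its central component, rose from 1.88 and 2.49 to 24 and 32.1 CPM (3.18 ± 0.14 (SE), limma adjusted p 4.7e-10). The alternative-pathway protease Cfb rose from 1.16 and 1.36 to 10.3 and 11.5 CPM, and Serping1, the inhibitor of the first component, from 72.8 and 68.9 to 219 and 201 CPM.

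NF-kappaB and its inflammatory targets divided by role. In this pathway subunits held in the cytoplasm by inhibitors move to the nucleus after signals from cytokine receptors. Of 5 subunit genes 4 fell and 1 rose: Rela went from 120.1 and 117 to 81.7 and 89.3 CPM and Rel from 21.8 and 22 to 10.8 and 10.2 CPM, against Nfkb1 at 54.1 and 54.6 CPM on D2 and 67.4 and 66.8 CPM on D4. Among inhibitors, Tnfaip3, a deubiquitinase that ends the signal, fell from 37.4 and 33.2 to 12 and 13.6 CPM, while Nfkbiz, a nuclear cofactor for late targets, rose from 27.9 and 28.1 to 89.1 and 78.8 CPM. Il1r1, the interleukin-1 receptor, rose from 26 and 24.9 to 86.1 and 88 CPM and Il1rl1, the receptor of interleukin-33, fell from 141 and 142 to 61.4 and 52.9 CPM. Of 14 chemokine and cytokine targets tested 9 rose and 2 fell (1 fell without D2 replicate 2 or D4 replicate 2), with 5 of 19 below the filter. Cxcl10, which interferons also induce, rose from 2.28 and 1.47 to 55.1 and 66 CPM, and Lif, the cytokine also present in the medium, fell from 18.3 and 20.7 to 16.6 and 15.7 CPM, a call lost without D2 replicate 2 or D4 replicate 2. Il6 was not called, at 1.64 and 1.49 CPM on D2 and 1.2 and 1.05 CPM on D4, but was called lower under both other scalings. The promoters of Cxcl1 and Il6 are shown because both carry a kappaB element, read on either strand, in capitals, and Cxcl1 rose where Il6 was not called (RefSeq, GRCm38.p6, the 200 bases before the start).
Cxcl1, chr5:90891045-90891244, plus strand: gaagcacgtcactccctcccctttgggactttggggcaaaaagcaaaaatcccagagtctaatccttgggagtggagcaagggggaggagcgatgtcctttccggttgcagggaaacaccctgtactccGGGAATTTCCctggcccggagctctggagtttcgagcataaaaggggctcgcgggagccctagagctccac
Il6, chr5:30012914-30013113, plus strand: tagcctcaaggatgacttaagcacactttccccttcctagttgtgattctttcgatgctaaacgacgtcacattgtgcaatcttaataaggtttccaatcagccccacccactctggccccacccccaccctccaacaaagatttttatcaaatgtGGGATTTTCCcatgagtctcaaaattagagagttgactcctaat
Cxcl1, a neutrophil chemokine, rose from 3.92 and 5.78 to 86.2 and 79.8 CPM with the element 71 bases before its start, and the element lies 44 bases before that of Il6. It was found in 4 of 10 targets with a promoter in the table, 40%, and in 0.466% of all promoters.

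Of 9 EGF-family ligands tested 3 rose and 4 fell, and of 3 receptors 1 rose. EGF-family ligands bind EGFR and its relatives and drive the MAP kinase cascade, whose feedback inhibitors are transcribed when it is active. Hbegf, a membrane-tethered ligand, was at 89.8 and 80.7 CPM in the D2 libraries and 9.19 and 10.4 CPM in the D4 libraries, a mean 8.69-fold lower on D4, with a limma adjusted p of 7.8e-10. Ereg fell from 68.1 and 69.9 to 41.6 and 40 CPM, and Btc, betacellulin, rose from 2.58 and 3.04 to 8.24 and 8.55 CPM. Egfr itself rose from 96.9 and 99.9 to 192 and 211 CPM, while Erbb2 was not called at 37.8 and 39.1 and 37.6 and 41.3 CPM. Feedback inhibitors went both ways, 11 higher and 6 lower of 17. Spry4, an inhibitor of Ras activation, rose from 4.76 and 5.43 to 23.1 and 24.7 CPM, and Dusp6, a phosphatase for ERK, rose from 5.41 and 5.43 to 23.5 and 21 CPM. Dusp5, a nuclear ERK phosphatase, fell from 22.5 and 19.8 to 2.7 and 2.43 CPM and Errfi1, an inhibitor of EGFR, from 82.2 and 70.1 to 24.8 and 23.3 CPM. No library of one day reached the range of the other for any of these 4. Of 12 ETS and growth-signal factors 5 rose and 7 fell. Etv1 and Etv5, factors downstream of FGF receptors, rose from 4.76 and 4.26 to 20.8 and 19.6 CPM and from 22.9 and 25.8 to 52.2 and 49.5 CPM, and Plaur, the urokinase receptor, fell from 50.8 and 44.1 to 16.7 and 14.1 CPM.

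AP-1 and the immediate-early factors, which appear within minutes of a stimulus, also divided. Of 32 tested members 7 rose and 19 fell, with a median change of -0.56. Fosb, a partner of the Jun proteins, was at 38 and 31.9 CPM in the D2 libraries and 105 and 124 CPM in the D4 libraries, and Ier2, another immediate-early gene, at 24.3 and 21.1 CPM in the D2 libraries and 72.9 and 63.9 CPM in the D4 libraries. On D6 Fosb was at 2.26 and 1.79 CPM and Ier2 at 24.6 and 26.4 CPM, so that D4 was the high point of the 4 days for both. Zfp36, which shortens the life of cytokine mRNA, was at 20.6 and 19.9, 84.3 and 82.7, 21.7 and 18.7 and 18.7 and 19.2 CPM on D2, D4, D6 and D8. Dusp1, a stress-induced phosphatase, took the same course with 39.2 and 36.2, 81.7 and 81.4, 25.1 and 25.9 and 29.2 and 22.5 CPM. Other members of the class fell between D2 and D4 and stayed low: Fosl1 went from 29.3 and 30.8 to 8.09 and 7.35 CPM and was at 6.1 and 6.06 CPM on D6, Maff from 30 and 26.8 to 3.5 and 3.71 CPM, and Nr4a3, an orphan nuclear receptor, from 5.9 and 5.73 to 0.25 and 0.301 CPM. Among the Jun genes Jun was not called at 87 and 78.2 CPM on D2 and 82.5 and 82.3 CPM on D4, Junb rose from 129.6 and 118 to 150.4 and 145 CPM and Jund fell from 168 and 163 to 112 and 107 CPM.

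**Figure D3:**
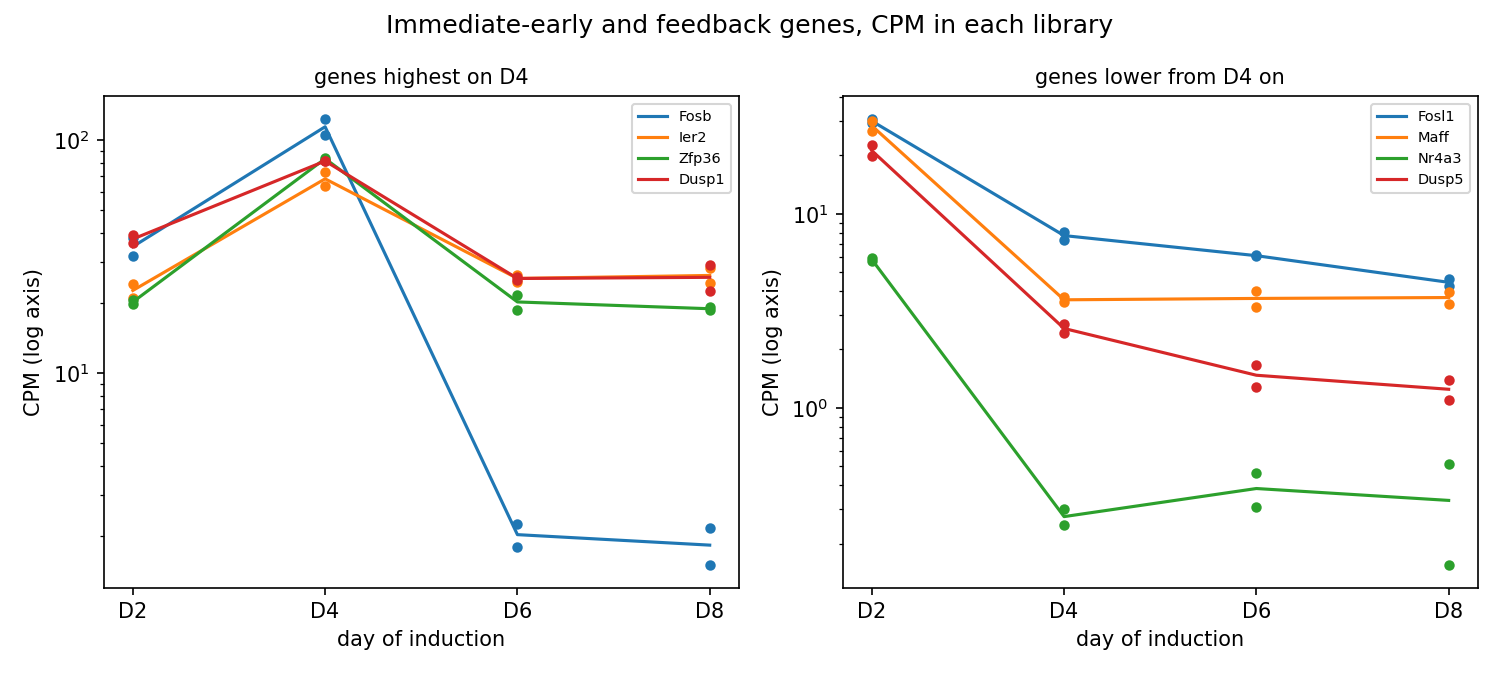
CPM on a log axis in each D2, D4, D6 and D8 library (points) for immediate-early and feedback genes, with lines through the day means. Fosb, Ier2, Zfp36 and Dusp1 peak on D4, while Fosl1, Maff, Nr4a3 and Dusp5 drop by D4 and stay low.

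The contractile apparatus fell almost as one. Actin and myosin filaments, their regulators and the adhesions that anchor them give fibroblasts their tension, and many of their genes are driven by serum response factor with its coactivators, which sense the pool of free actin. Of 47 tested members 44 fell, 31 of them at least 2-fold, and 1 rose. The promoters of 3 members are shown because they carry the CArG box bound by serum response factor, in capitals (RefSeq, GRCm38.p6, the 200 bases before the start).
Myl9, chr2:156775264-156775463, plus strand: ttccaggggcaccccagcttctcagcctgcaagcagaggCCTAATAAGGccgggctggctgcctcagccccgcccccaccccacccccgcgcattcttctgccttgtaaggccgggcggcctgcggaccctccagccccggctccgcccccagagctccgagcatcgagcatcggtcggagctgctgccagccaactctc
Cnn2, chr10:79988400-79988599, plus strand: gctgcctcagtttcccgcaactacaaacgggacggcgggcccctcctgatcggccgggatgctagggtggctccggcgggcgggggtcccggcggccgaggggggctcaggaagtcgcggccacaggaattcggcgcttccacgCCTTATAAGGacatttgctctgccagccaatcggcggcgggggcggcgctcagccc
Actg1, chr11:120348496-120348695, minus strand: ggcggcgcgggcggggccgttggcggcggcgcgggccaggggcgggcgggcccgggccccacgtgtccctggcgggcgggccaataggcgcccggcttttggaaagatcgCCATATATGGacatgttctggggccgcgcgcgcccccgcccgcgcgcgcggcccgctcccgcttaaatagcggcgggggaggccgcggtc
The box begins 161, 56 and 90 bases before the start of Myl9, Cnn2 and Actg1. It was found in 4 of 10 actins and myosins with a promoter in the table, 40%, and in 1 of 10 thin filament regulators, against 1.81% of all promoters. Myl9, a regulatory light chain of myosin, fell from 277 and 269 to 54.6 and 61 CPM and Actg1, a cytoplasmic actin, from 1702 and 1710.2 to 578 and 602 CPM. Cnn2, a calponin that binds actin filaments, fell from 690.0 and 665 to 194 and 194 CPM. Actb, the most abundant actin by its mean over the 8 libraries, was at 2092 and 2037 CPM on D2 and 880.1 and 869.5 CPM on D4. Acta2 stood above it on D2, at 2448 and 2340 CPM, and below it on D4, at 517 and 507 CPM. All 13 actins and myosins and all 11 thin filament regulators fell, by a median of -1.24 and -1.56. Of 18 focal adhesion genes 17 fell, with Vcl, vinculin, going from 1009 and 998 to 219.6 and 235 CPM and Zyx, zyxin, from 873 and 871 to 206 and 224 CPM. Parva, a parvin, was the exception, at 467 and 457 CPM on D2 and 436 and 475 CPM on D4, and was called higher after quantile normalization. Srf itself fell from 74.3 and 76 to 30.7 and 31.5 CPM, and its coactivator Mrtfb was the member that rose, from 44.3 and 45.6 to 62.3 and 66.5 CPM. The 9 smooth muscle and pericyte markers given above fell beside this group, Acta2, Myh11, Cnn1, Tagln and Lmod1 belong to both, and their part in the result was not tested.

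YAP and TAZ are coactivators held out of the nucleus by Hippo kinases and released by tension. Their own genes changed little: Yap1 rose from 206 and 194 to 217 and 227 CPM, a call lost with median-of-ratios factors and without D2 replicate 2 or D4 replicate 2, and Wwtr1, which encodes TAZ, was not called at 282 and 303 CPM on D2 and 301 and 294 CPM on D4. Of 14 target genes 10 fell and 4 rose, with a median of -0.89. F3, tissue factor, fell from 124 and 119 to 14.4 and 14.8 CPM (-2.97 ± 0.09 (SE), limma adjusted p 1.5e-11) and Nt5e, an ectonucleotidase that marks mesenchymal cells, rose from 24.4 and 23.4 to 75.3 and 69.3 CPM. Amotl2, an angiomotin that restrains YAP, fell from 326 and 334 to 128 and 132 CPM.

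TGF-beta, activin and BMP ligands share a receptor class and divide by the Smad they activate. TGF-beta members were balanced, 10 higher and 10 lower of 27, and 9 and 13 with median-of-ratios factors. Inhba, the activin A subunit, fell from 279 and 292 to 78.1 and 81.8 CPM. Ltbp2, a latent TGF-beta binding protein, rose from 149 and 152 to 261 and 316 CPM, and Eng, a coreceptor, rose from 54.9 and 52.9 to 139 and 144 CPM. Among receptors Tgfbr2 was at 540.0 and 537 CPM on D2 and 500.0 and 502 CPM on D4, and Smad7, the inhibitory Smad, went from 31.4 and 29.7 to 18.9 and 19.8 CPM. Of 9 tested genes listed as BMP ligands 7 rose. These 7 include a procollagen protease that is also counted among the enzymes that modify collagen. Bmp2, a ligand, went from 3.32 and 2.64 to 10.9 and 12.2 CPM. Secreted inhibitors of BMP ligands gave 4 higher and 6 lower of 11. Grem1 fell from 288 and 308 to 126 and 98.9 CPM and Fstl3 from 25 and 26.9 to 9.41 and 9.93 CPM. Chrd, chordin, rose from 13.8 and 13.8 to 23.2 and 25 CPM. Of 7 BMP targets 5 rose. Id1, an inhibitor of helix-loop-helix factors, was at 24.7 and 21.4 CPM in the D2 libraries and 63.2 and 59.2 CPM in the D4 libraries, Id3 went from 32 and 29.1 to 81.8 and 73.2 CPM and Msx1 from 7.61 and 7.52 to 26.7 and 24.3 CPM, whereas Msx2 fell from 9.28 and 9.96 to 3.4 and 2.81 CPM.

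Wnt ligands are restrained outside the cell by secreted frizzled-related proteins and Dickkopfs. Of 6 such inhibitors that passed the filter 5 rose at least 2-fold and 1 fell. Sfrp2 rose from 0.942 and 0.797 to 6.47 and 6.69 CPM and Sfrp1 from 26.2 and 25.1 to 97.5 and 104 CPM, and both D4 libraries lay above both D2 libraries for each. Notum, a lipase that inactivates Wnt ligands, fell from 14.7 and 15.7 to 2.67 and 4.44 CPM. Wnt10b, a canonical ligand, fell from 12 and 12.5 to 3.5 and 2.51 CPM, and Axin2, a negative-feedback target, fell from 30.8 and 34.5 to 16.6 and 19.8 CPM. Apcdd1, a membrane inhibitor and target of Wnt, rose from 45.8 and 48.2 to 123 and 124 CPM, while Ctnnb1, beta-catenin, was at 620.2 and 626 CPM on D2 and 607 and 599 CPM on D4. Ctnnb1 was not called as deposited but was called higher after quantile normalization. In the Notch pathway 8 rose and 3 fell of 16 tested, with 4 of 20 below the filter. Of those tested 68.8% were called, against 62.5% of all genes, and their median lay 0.05 above that of all genes. Jag2, a ligand, went from 3.22 and 2.94 to 8.74 and 10.3 CPM and Notch4 from 8.58 and 7.32 to 19.1 and 20.7 CPM. Lfng, a glycosyltransferase of the receptor, went from 33.9 and 31.2 to 12 and 10.5 CPM.

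Insulin-like growth factors are made by mesenchyme and held by binding proteins, and both growth factor genes rose. Igf1 was at 5.9 and 5.03 CPM in the D2 libraries and 39.7 and 53.8 CPM in the D4 libraries, a change of 2.87 ± 0.15 (SE) with a limma adjusted p of 2.2e-09. Igf2, a fetal growth factor expressed from the paternal allele, went from 712 and 713 to 1496 and 1709 CPM. Hgf, the ligand of the Met receptor, rose from 3.05 and 2.81 to 14.1 and 16.1 CPM. Genes listed as binding proteins went both ways, 5 higher and 3 lower of 9 and 4 and 4 under both other scalings. Not all of the 9 are Igfbp genes, and a stanniocalcin is among those that fell. Igfbp5 rose from 151 and 159.7 to 659 and 874 CPM and Igfbp7 fell from 381 and 368 to 195 and 181 CPM. Igf1r, the receptor, fell from 159 and 160.1 to 121 and 136 CPM, as did Flt1, a VEGF receptor, from 69.1 and 68.9 to 26.3 and 32.3 CPM, and Fgfr3 rose from 1.24 and 1.64 to 7.81 and 7.16 CPM. Ligands of the FGF, PDGF and IGF systems gave 9 higher and 6 lower of 20, and 9 and 8 with median-of-ratios factors. Imprinted genes, expressed from 1 parental allele, gave 15 higher and 8 lower of 25 tested, the latter 5 without D2 replicate 1 or D4 replicate 1. Cdkn1c, a maternally expressed inhibitor of cyclin-dependent kinases, rose from 3.08 and 3.04 to 24.8 and 25.4 CPM, Peg3 from 51.8 and 53.2 to 181 and 216 CPM and Mest from 35.9 and 35.7 to 104 and 120.0 CPM. Snrpn, a paternally expressed splicing protein, fell from 22.2 and 21 to 13.2 and 13.6 CPM.

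The matrix changed its composition. Collagens form its fibrils and fine networks, proteoglycans and elastic fibres dress them, and adhesive glycoproteins tie cells to them. Fibrillar collagens rose in 8 of 11 cases: beside the collagen I and III chains, Col24a1 went from 1.84 and 1.79 to 25.8 and 24.4 CPM, while Col5a2, which starts fibrils, fell from 3361 and 3284 to 2814 and 2801 CPM, a call lost without D2 replicate 1. Of 14 other collagens 11 rose, with Col14a1 going from 56.4 and 58.3 to 169 and 182 CPM and Col8a2 from 0.446 and 0.398 to 6.29 and 8.32 CPM. Enzymes that modify and crosslink collagen fell more often than they rose, 8 against 5 of 17. P4ha1, a prolyl hydroxylase, fell from 402 and 376 to 126 and 115 CPM, and the crosslinking oxidase Loxl4 from 226 and 217 to 46.3 and 42.9 CPM. Small leucine-rich proteoglycans gave 7 higher and none lower of 10. Kera, keratocan, rose from 0 and 0.0996 to 10 and 12.1 CPM.

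Elastic fibre and adhesive glycoproteins gave 11 higher and 9 lower of 24. Eln, the elastin of elastic fibres, was at 29.4 and 28.7 CPM in the D2 libraries and 290.0 and 305 CPM in the D4 libraries, a 10.2-fold difference. Mfap4, a microfibril protein, rose from 3.82 and 4.38 to 50.9 and 59.6 CPM. Fn1, fibronectin, fell from 13033 and 12686 to 5909 and 6886 CPM and Spp1, osteopontin, from 1388 and 1399.9 to 524 and 375 CPM. Of 14 metalloproteinases 9 rose, among them Mmp10 from 2.78 and 3.56 to 25.2 and 20.7 CPM, and Mmp2, a gelatinase and the most abundant, was at 282 and 289 CPM on D2 and 892 and 904 CPM on D4. Adam and Adamts proteases rose in 13 of 18 cases, with Adam33 going from 2.28 and 2.59 to 8.64 and 7.92 CPM. Serpina3n, a secreted protease inhibitor, rose from 11.2 and 10.4 to 92.6 and 118 CPM, while Plau, urokinase, fell from 115 and 102 to 25.6 and 25.7 CPM. Integrins, the receptors for matrix, gave 6 higher and 7 lower of 19, with 68.4% called against 62.5% of all genes. Itgb1, the shared beta chain, fell from 2530.3 and 2484 to 928 and 907 CPM, and Itga7, a laminin receptor, from 47.8 and 46.1 to 10.2 and 10.5 CPM. Itga10 and Itga1, collagen receptors, rose from 1.61 and 1.73 to 6.06 and 6.23 CPM and from 20.8 and 21.3 to 58.8 and 66.5 CPM.

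**Figure D4:**
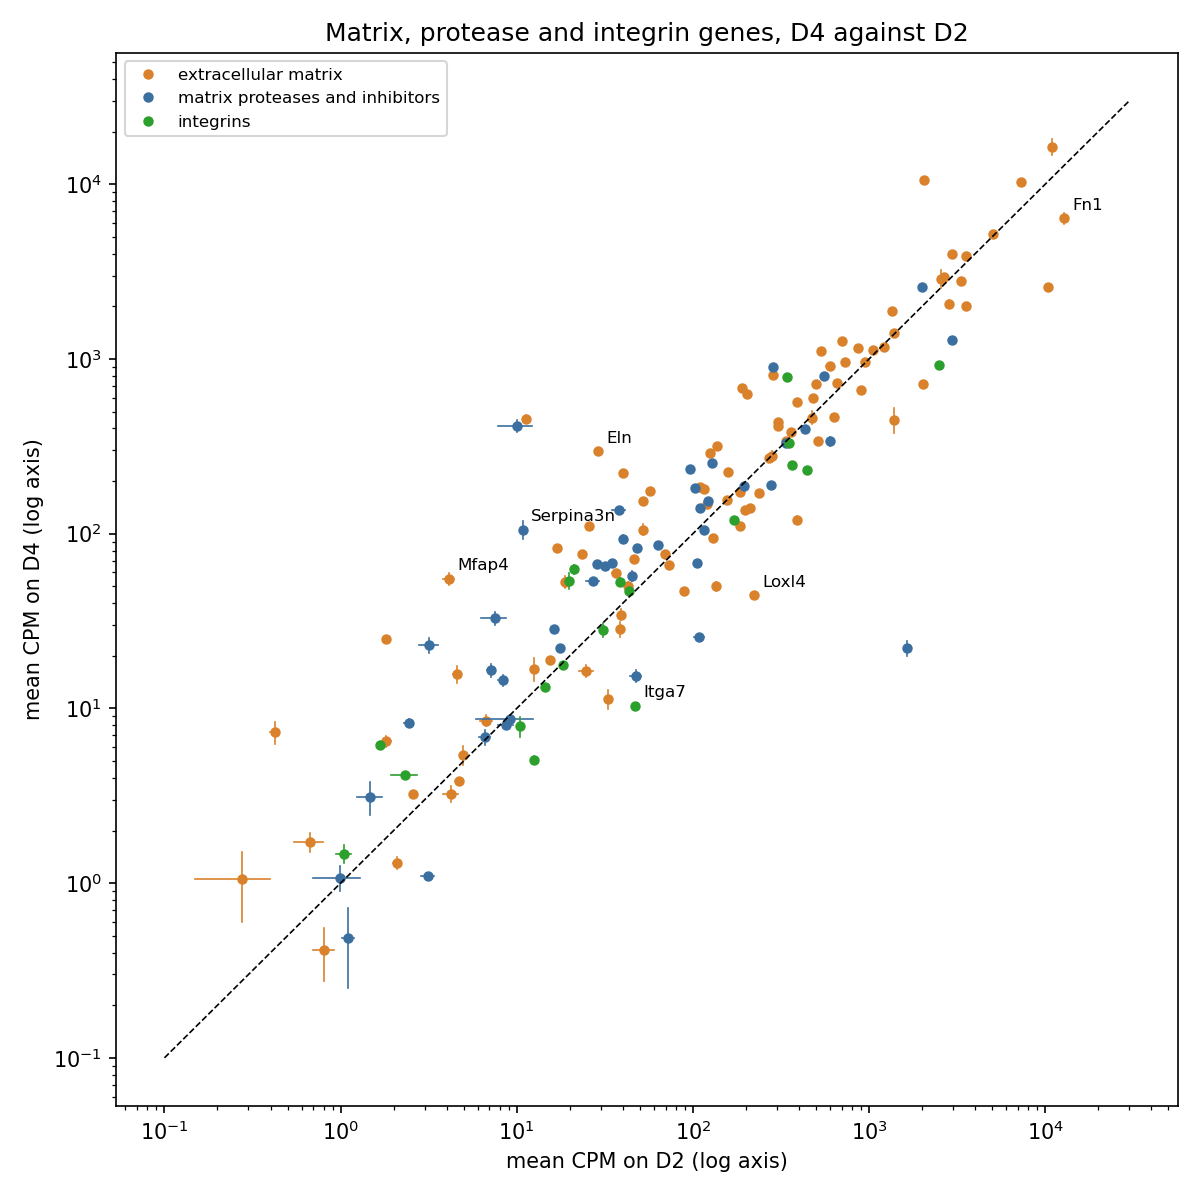
Mean CPM on D2 (horizontal, log axis) against mean CPM on D4 (vertical, log axis) for extracellular matrix, protease and integrin genes that passed the filter, with bars to both libraries and genes at 0 in a library left out. The dashed line is equality; Eln, Mfap4 and Serpina3n lie above it, and Fn1, Itga7 and Loxl4 below.

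Proliferation genes rose by small and even amounts. Of 30 DNA replication genes 26 rose and none fell, and of 30 mitosis genes 27 rose (17 after quantile normalization) and none fell, with medians of 0.50 and 0.45 and no change reaching 2-fold. Mki67, the Ki-67 chromosome coat protein, rose from 129.9 and 123 to 186 and 249 CPM. Rrm1, a subunit of ribonucleotide reductase, was not called at 140.3 and 139.8 CPM on D2 and 143 and 155 CPM on D4. E2f2, a factor that drives S-phase genes, rose from 1.34 and 0.797 to 6.34 and 5.41 CPM. The mitotic promoter element TTTGAA stood in 76% of the mitosis genes with a promoter in the table, 19 of 25, and in 20.2% of all promoters. Inhibitors and p53 targets gave 10 higher and 9 lower of 23, which became 9 and 11 with median-of-ratios factors and 10 and 5 after quantile normalization. Cdkn2b, an inhibitor of CDK4 and CDK6, fell from 106 and 106 to 51.3 and 49.8 CPM and Pmaip1, a pro-apoptotic BH3 protein, from 65.9 and 60.8 to 17.9 and 17.4 CPM. Sesn1, a p53 target, rose from 10 and 11.7 to 27 and 26.8 CPM.

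Chromatin regulators also leaned upward, 65 higher and 4 lower of 92 (2 lower without D2 replicate 1 or D2 replicate 2, 8 with median-of-ratios factors and 9 after quantile normalization), with 5 reaching 2-fold and a median 0.20 above that of all genes. Smarca2, an ATPase of the SWI/SNF remodeler, rose from 63.6 and 63.9 to 154 and 173 CPM, and Apobec1, a cytidine deaminase, from 7.04 and 8.37 to 25.9 and 22.8 CPM. Nsd1, a methyltransferase for H3K36, rose from 99.1 and 101 to 186 and 197 CPM, Ehmt1, a methyltransferase for H3K9, from 42.9 and 42.9 to 73 and 73.7 CPM, and Jarid2, a partner of Polycomb complex 2, from 13.6 and 14.2 to 26.2 and 28.8 CPM. Dot1l, which methylates H3K79 and restrains reprogramming, fell from 99.9 and 102 to 64.2 and 70.9 CPM and Gadd45a from 16.6 and 16.1 to 10.4 and 8.8 CPM. Hox genes, which keep the positional identity of fibroblasts, moved by less than 2-fold in every cluster, with 11 higher and 6 lower of 33, the former 7 without D2 replicate 2. That balance turned to 8 higher and 11 lower with median-of-ratios factors and to 3 and 13 after quantile normalization. As deposited, 51.5% of the Hox genes were called, against 62.5% of all genes.

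Most genes of glucose uptake and glycolysis fell and most of cholesterol synthesis rose. Of 23 genes of glucose uptake and glycolysis 17 fell, 13 at least 2-fold, and 5 rose, with a median of -1.37. Pkm, pyruvate kinase, was at 1723 and 1698 CPM in the D2 libraries and 668 and 645 CPM in the D4 libraries. The glycolytic enzyme Eno2 rose from 11.8 and 10.9 to 22 and 20.7 CPM, as did Slc16a1, a monocarboxylate carrier, from 45.1 and 46.3 to 161 and 155 CPM. Of 22 oxygen-sensing and hypoxia genes 12 fell and 7 rose, the latter 3 without D2 replicate 1 and also 3 with median-of-ratios factors. Ndrg1, a hypoxia target, fell from 64 and 66.8 to 14.6 and 13.8 CPM, Epas1, which encodes HIF-2 alpha, rose from 42.1 and 42.9 to 59.2 and 64.6 CPM, and Hif1a was at 434 and 441 CPM on D2 and 421 and 447 CPM on D4. Hif1a was not called as deposited but was called higher after quantile normalization. The hypoxia core ACGTG stood in 63.6% of glycolysis promoters and in 21.8% of all promoters. Most of the glycolysis genes that held it fell, but Slc16a1, which rose, held it too. Pentose phosphate and gluconeogenesis genes gave 2 higher and 3 lower of 10 tested, with a median of -0.01, and 1 higher after quantile normalization. Pcx, pyruvate carboxylase, rose from 17.5 and 17.5 to 51.4 and 56.1 CPM. Cholesterol synthesis is switched on together by SREBP2, and 19 of its 24 genes rose and 2 fell. Tm7sf2, a sterol reductase, went from 9.1 and 10.8 to 21.4 and 20.1 CPM. Elovl6, a fatty acid elongase, rose from 48.3 and 49.1 to 103 and 109.7 CPM, Cpt1a, the gate to fatty acid oxidation, from 129 and 129.6 to 292 and 313 CPM, and Plin2, a lipid droplet coat protein, fell from 269 and 263 to 139 and 129 CPM.

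Of 13 mitochondrially encoded respiratory chain genes 9 rose and 1 fell. Of 35 nuclear ones 2 rose, 11 fell and 22 were not called, so that 37.1% were called against 62.5% of all genes, with a median of -0.07. The nuclear counts became 0 and 20 with median-of-ratios factors and 0 and 13 after quantile normalization. The falls among the nuclear genes numbered 5 without D2 replicate 1 or D4 replicate 2, 7 without D2 replicate 2 and 17 without D4 replicate 1, and the rises 0 without D2 replicate 1 and 1 without D4 replicate 1. mt-Nd4 went from 3921 and 3975 to 6818 and 6832 CPM and mt-Co3 fell from 2900.3 and 2887 to 2548 and 2224 CPM, a call lost after quantile normalization and without D2 replicate 1, D2 replicate 2 or D4 replicate 2, while Atp5b, the nuclear ATP synthase beta subunit, was at 1033 and 1021 CPM on D2 and 762 and 734 CPM on D4.

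Genes of amino acid supply and protein folding fell together. ATF4 is a factor that raises amino acid synthesis, import and tRNA charging under stress. Of its 12 targets and partners 10 fell and 1 rose. Sesn2, a leucine sensor, went from 96.8 and 98.2 to 111 and 122 CPM and Vldlr, a lipoprotein receptor, from 58.2 and 60.5 to 22.5 and 22.6 CPM. Aldh1l2 and Mthfd2, mitochondrial folate enzymes, fell from 103 and 109.5 to 41.8 and 37.9 CPM and from 77.3 and 80.8 to 29.7 and 31.6 CPM, and Glul, glutamine synthetase, rose from 52.1 and 50.6 to 137 and 132 CPM. Aminoacyl-tRNA synthetases gave no rise and 15 falls of 20, with Aars going from 449 and 432 to 197 and 195 CPM. Cytosolic heat shock proteins fell in 14 of 16 cases, all 8 chaperonin genes fell (5 after quantile normalization), and proteasome genes fell in 24 of 31, with none higher in the 3 groups. Psmd8, a lid subunit, fell the most of the proteasome genes, from 463 and 446 to 212 and 188 CPM, and Cct2, a chaperonin subunit, went from 454 and 452 to 328 and 319.7 CPM. Of 20 chaperones and unfolded protein response genes of the endoplasmic reticulum 14 fell and 2 rose, 1 with median-of-ratios factors and also 1 without D2 replicate 1, D2 replicate 2 or D4 replicate 2. Sqstm1, an autophagy receptor, fell from 486 and 458 to 256 and 239 CPM, and Ctsk, cathepsin K, a collagen-degrading lysosomal protease, rose from 55.9 and 52.7 to 122 and 117 CPM.

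Of 101 translation genes 50.5% were called, against 62.5% of all genes, and most of those called fell by small amounts. Cytosolic ribosomal proteins gave no rise and 20 falls of 60, 57 falls with median-of-ratios factors, and 2 rises with 2 falls after quantile normalization, so their call rests on the scaling. Only 33.3% of these 60 were called as deposited. Leaving out D2 replicate 1, D2 replicate 2, D4 replicate 1 or D4 replicate 2 gave 8, 11, 53 or 4 falls. Initiation and elongation genes fell in 13 of 15 cases, and 8 fell and 1 rose after quantile normalization, with Eif4ebp1, a repressor of cap-dependent initiation and an ATF4 target, going from 227 and 221 to 112 and 89.2 CPM. Redox genes gave 18 higher and 16 lower of 39, and 15 and 19 with median-of-ratios factors. Hmox1, heme oxygenase, was at 305 and 303 CPM in the D2 libraries and 62.3 and 60.3 CPM in the D4 libraries, and fell by 2.29 with a limma adjusted p of 1.7e-12. Sod3, the extracellular superoxide dismutase, rose from 16.6 and 21.1 to 101 and 98.9 CPM and Aldh3a1, an aldehyde dehydrogenase, from 160.5 and 159 to 636 and 565 CPM. Of 18 clock genes 8 rose and 3 fell, and 5 and 4 with median-of-ratios factors and 5 and 5 after quantile normalization, with 5 rises also without D2 replicate 2 or D4 replicate 2. As deposited, 61.1% of the clock genes were called, against 62.5% of all genes. Nfil3, a repressor of the clock loop, fell from 58.4 and 54 to 10.9 and 12.8 CPM, and Per3 rose from 9.83 and 10.5 to 36.1 and 33.6 CPM.

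Several single genes of signalling and the nucleus changed by large amounts. Atp2a3, a calcium pump of the endoplasmic reticulum, was at 7.19 and 7.2 CPM in the D2 libraries and 201 and 201 CPM in the D4 libraries, and Ryr3, a calcium release channel, at 1.98 and 2.27 CPM in the D2 libraries and 10.6 and 12.8 CPM in the D4 libraries. Agtr1a, an angiotensin receptor, rose from 2.98 and 2.17 to 24 and 24.4 CPM. Edn1, endothelin, fell from 17.5 and 17 to 4.29 and 4.14 CPM, as did Ptgs2, the inducible prostaglandin synthase, from 229.8 and 232 to 69.2 and 66.6 CPM. Gja1, the main fibroblast connexin, rose from 362 and 353 to 463 and 444 CPM. Neat1, the RNA scaffold of paraspeckles, fell from 730.0 and 736 to 233 and 213 CPM, and Miat rose from 224 and 225 to 493 and 487 CPM. Malat1 was at 610.0 and 595 CPM in the D2 libraries and 769 and 1594 CPM in the D4 libraries, and the 2 D4 libraries stood far apart.

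The first step was compared with the last, D8 minus D6, which shares no library with it. The difference of the steps was called for 51.4% of genes, 33.5% above and 17.8% below, while D8 against D6 alone was called for 9.11%. Of 79 interferon genes 69 rose more in the first step and 3 less. Of 47 actin and contraction genes 42 fell more in the first, and of 23 glycolysis genes 16. Medians in the last step were -0.07, -0.04 and -0.07 for the 3 groups. For Stat2 the difference of the steps was 2.80 (limma adjusted p 1.2e-09) and for Zyx -1.93. The MHC chain B2m, not called in the first step, was at 413 and 726 CPM on D6 and 964 and 921 CPM on D8.

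**Figure D5:**
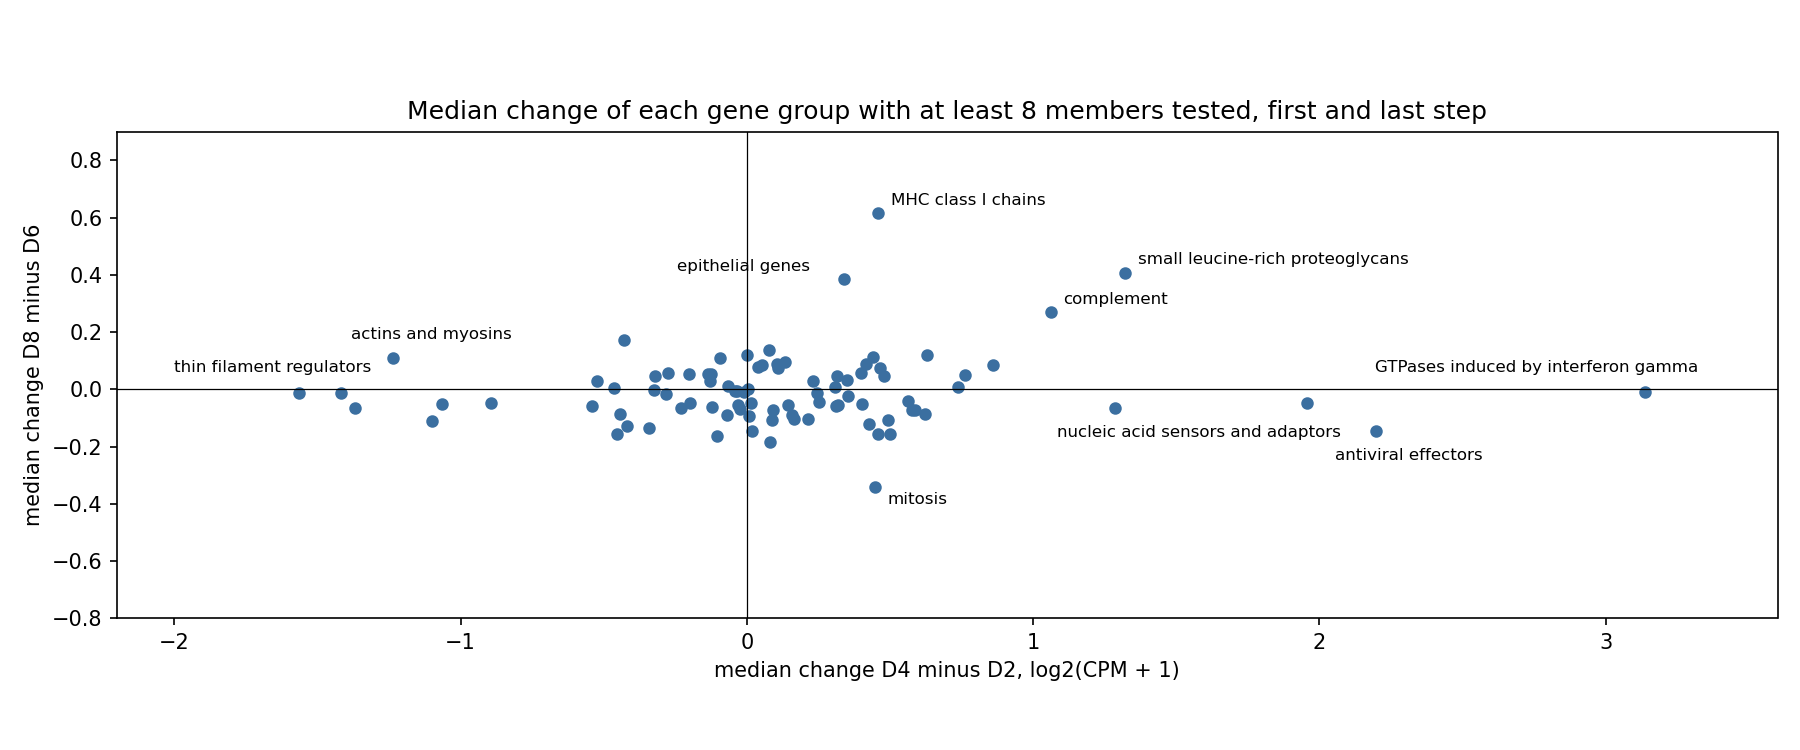
Median change of each gene group with at least 8 tested members, cell type markers left out, on the log2(CPM + 1) scale in the first step, D4 minus D2 (horizontal), and in the last, D8 minus D6 (vertical). These groups spread along the horizontal axis, from thin filament regulators on the left to interferon-induced GTPases on the right, and most lie near 0 on the vertical axis; MHC class I chains lie highest there and mitosis genes lowest.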

How the data were processed

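Per the labels' protocols, TRIzol was used to extract total RNA, and a BGISEQ-500 read the libraries. Reads were trimmed with Trimmomatic 0.39, assigned to genes with featureCounts and placed on mm10, per the submitters' processing notes. For the aligner, annotation release and strand setting, the sources used here give nothing. The table the authors deposited, and called TPM, holds CPM: each column sums to 1000000 and does not depend on gene length. From 53.2% to 54.8% of a library's values came out as whole reads within 0.02, so no count test was run. Of 32108 identifiers 32063 matched GENCODE M21 symbols.

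Genes reaching 1 CPM in at least 2 of the 8 libraries were tested with limma 3.58.1 in R 4.3.3 on log2(CPM + 1), with day as the only term, 4 residual degrees of freedom, an intensity trend and Benjamini-Hochberg adjustment over all 15358 genes. Fitting was tested on simulated data. The contrasts were D4 minus D2, and that difference minus D8 minus D6. For a single gene, 2 against 2 libraries cannot go below p = 0.333 in an exact permutation test, so no such test was run. Lists were described by counts and medians, without a set test. Same-numbered libraries had a correlation of deviations of 0.04 between D2 and D4, and from -0.10 (D4 and D6) to 0.21 (D4 and D8) over the 6 pairs of days. Not every pair exceeded 0.1, so the numbers were not taken to pair the libraries.

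Members and lists were chosen with earlier results of these data known. Named genes were, per role, the most abundant member and up to 2 with the largest rise and 2 with the largest fall having at least 5 CPM in the higher day, the 10 largest gains and losses in CPM, and the factor genes with Nanog, Cdh1, Thy1 and Col1a1. Some genes the rule names are not reported here. The following fall outside that rule and were chosen after their values were seen: Actg1, Cd74, Cnn2, Cxcl1, Dusp1, Erbb2, F3, Ifit1, Ifnar1, Ifnb1, Ifng, Il6, Irf1, Isg15, Jun, Malat1, Myh11, Myl9, Parva, Ptprc, Rsad2, Socs1, Tagln, Xist and Yap1. Promoters were searched for motifs on both strands in RefSeq windows. Alternatives were another pseudocount, other filters, median-of-ratios and quantile scaling, D2 and D4 alone, no trend, a replicate block and leaving out each D2 or D4 library.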

Additional observations from a re-analysis of the deposited data

How the results depend on the processing

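The counts of genes higher, lower and different between steps, and of list members called, stayed within 1.5 times of the main count under every alternative run. Without 1 library, 5313 to 5847 genes were higher, 2729 to 3397 lower and 6638 to 7845 differed between steps; where a day then had 1 library, it was assumed to vary like the others. With the replicate block the counts were 6357, 3396 and 8080, against 6276, 3330 and 7888, and the block changed no call of a named gene except Socs3. The median-of-ratios split was 5031 higher and 4651 lower, and that after quantile normalization 4407 and 4958. Of 2554 combinations of named gene and alternative, 2501 kept direction and side of the threshold.

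Among named genes the sign turned in these cases; the cause was not tested. With median-of-ratios factors Erbb2 was at -0.08, Irf1 at -0.08, Rrm1 at -0.03 and Wwtr1 at -0.09. After quantile normalization B2m was at 0.18, Ctnnb1 at 0.13, Erbb2 at -0.12, Hif1a at 0.19, Irf1 at -0.15, Parva at 0.18, Pdia3 at 0.03, Socs1 at -0.06 and Tgfbr2 at 0.05. Of these 9, only Pdia3 was called as deposited, while Ctnnb1, Hif1a and Parva were called higher after quantile normalization. Over the fits without 1 library, changes that turned ran from -0.20 to 0.11 for B2m, -0.03 to 0.10 for Erbb2, -0.06 to 0.03 for Hif1a, -0.00 to 0.06 for Irf1, -0.08 to 0.07 for Jun, -0.08 to 0.04 for Parva, -0.30 to 0.06 for Ptprc and -0.03 to 0.08 for Wwtr1. Cytosolic ribosomal proteins gave 5 falls with no filter and 7 without the trend, against 20. In every library 3 reads are about 0.15 CPM, and lower values were not distinguished from 0.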
